A study of Physcomitrium patens with 24 samples.

Results

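The genes described here are 200 genes of the moss *Physcomitrella patens* whose transcripts stood near the level of unheated tissue after 1 h at 37 °C and well above it after 6, 12 and 24 h. They were chosen from the measured values among the 32926 genes counted. Messenger RNA came from 7-day-old protonemata, the filamentous stage of the moss, of the Gransden strain, grown under a photoperiod of 16 h light and 8 h dark and then held at 24, 30 or 37 °C for 1, 6, 12 or 24 h. Each of these 12 groups had 2 libraries, which the study calls biological replicates. No group carried a mutation, a transgene or a chemical treatment, and the temperature and its duration were what set the groups apart. The 24 °C groups were the controls of the same hour.

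Plants meet a rise in temperature with an early wave of transcription, in which heat shock factors switch on genes of chaperones that hold or refold damaged proteins. Later transcripts accumulate while the heat lasts, a phase often called acclimation, and many plant genes also follow the time of day through the circadian clock. Protonemata are filaments of photosynthetic and tip-growing cells, so a bulk library from them averages cells of more than 1 kind. Fewer cells of a type and less RNA per cell cannot be told apart in such libraries.

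Total counts per library ran from 4332911 to 10696081. The TMM factors, which correct for differences in library composition, ran from 0.652 to 1.19, and the lowest were those of the 2 libraries of 37 °C 1 h. Unless said otherwise, levels are CPM, read counts over the library size corrected by these factors, and compare 1 gene between libraries, not genes with each other, because gene length does not enter them. The marker genes of green tissue with a name in the tables used numbered 2, and both came from a table of genes raised by heat, so the labelled tissue could not be checked against defining markers.

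The choice compared 37 °C with the mean of all 8 libraries of 24 °C. Its CPM were read counts over plain library totals, without the TMM factors, and so are the centred log2 ratios given below and the levels at the 1 CPM limit. For each gene with a mean of at least 1 CPM at 24 °C (18076 genes, the base genes) the log2 ratio of CPM, with 1 added to both means, was taken at each hour and centred on the median of the base genes. A gene had to stand within 0.5 of that median after 1 h at 37 °C and at least 1 above it after 6, 12 and 24 h. The first condition left 8963 base genes and all conditions together left 464, and the 200 genes whose smallest ratio over the 3 late hours was largest were kept. Every value of 37 °C against 24 °C is therefore a description of the choice. All 200 genes passed the filter on low counts, as they had to, given their level at 24 °C.

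Of the 1336 base genes that met the late conditions at 37 °C, 780 stood above the 1 h limit, 464 inside it and 92 below it. The last gene taken by rank was Pp3c19_7171, with a smallest centred log2 ratio of 1.3446, after Pp3c24_16390 with 1.3488. The first genes left out were Pp3c14_26010 with 1.3445 and Pp3c20_19960 with 1.3432, so the edge of the 200 fell among near-equal values. At the 1 h limits, Pp3c9_1660 (0.4987) and Pp3c23_21600 (0.4969) were inside and Pp3c2_27880 (0.5025) and Pp3c17_2650 (0.5026) outside. At the lower limit, Pp3c7_10960 (−0.4841) and Pp3c9_12610 (−0.4764) were inside, and Pp3c26_13080 (−0.506) and Pp3c15_5080 (−0.5133) outside. By level at 24 °C, Pp3c2_30280 (1.01 CPM) and Pp3c11_22230 (1.04 CPM) were inside, while Pp3c2_890 (0.974 CPM) and Pp3c11_21367 (0.953 CPM) were outside.

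At 37 °C the 200 genes had a median centred log2 ratio of 0.10 at the first hour and of 1.74 (6 h), 2.02 (12 h) and 1.84 (24 h) later. The highest of the 3 late ratios was that at 6 h for 26 genes, at 12 h for 116 and at 24 h for 58. Their mean level over the 24 °C libraries, the denominator of the choice, had a median of 9.24 CPM by plain totals.

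In the 2 libraries of each group, the median CPM over the 200 genes was 8.01 and 7.81 after 1 h at 24 °C, 8.17 and 7.58 after 1 h at 30 °C, and 7.89 and 9.47 after 1 h at 37 °C. After 6 h it was 8.79 and 8.94 at 24 °C, 13.0 and 11.8 at 30 °C, and 33.9 and 38.5 at 37 °C. After 12 h it was 10.8 and 9.92 at 24 °C, 13.1 and 15.6 at 30 °C, and 40.0 and 41.4 at 37 °C, and after 24 h it was 8.07 and 7.79, 15.7 and 15.9, and 39.9 and 38.4 at 24, 30 and 37 °C. The libraries of the 3 temperatures overlapped at 1 h and did not overlap at any later hour. The 37 °C part of this order was fixed by the choice of genes. The 30 °C libraries had no part in it, but the choice favoured genes high at 37 °C against 24 °C. The place of the 30 °C libraries between the others is therefore given as a description.

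**Figure D1:**
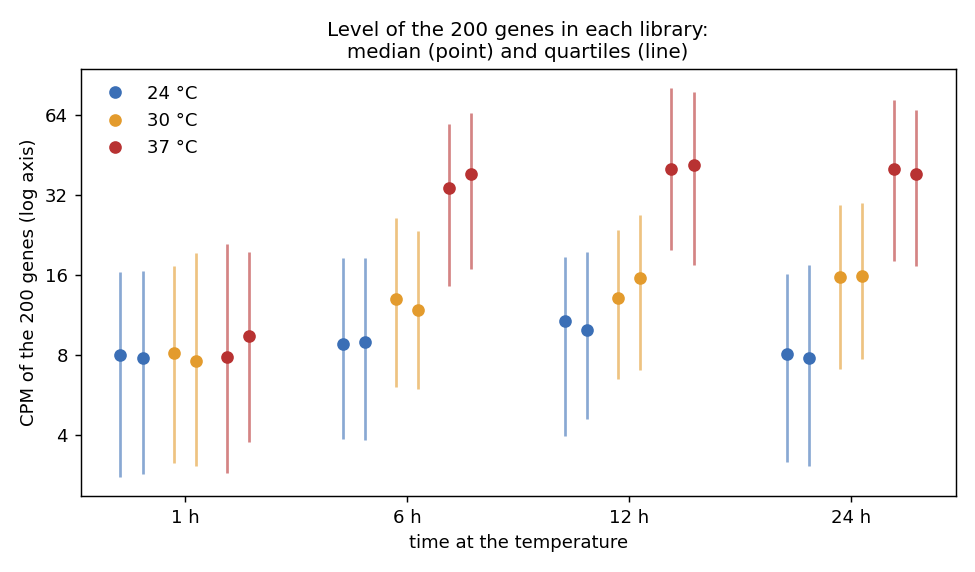
CPM (TMM-scaled, log axis) of the 200 genes in each of the 24 libraries by time at the temperature, as the median (point) and the quartiles over genes (line), at 24 °C (blue), 30 °C (orange) and 37 °C (red). The 3 temperatures lie together at 1 h, with medians of 7.58 to 9.47 CPM, and stand apart in the order of temperature from 6 h on.

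The near-unheated level after 1 h at 37 °C rested on the mean of 2 libraries that differed from each other. Taken alone, replicate 1 kept 165 of the 200 genes within the 1 h limit and replicate 2 kept 148. In replicate 2, 3 genes stood more than 1 above the median, and in replicate 1, 4 stood more than 1 below it. Pp3c17_6790, for example, had 30.4 CPM in replicate 1 and 142 CPM in replicate 2 at 37 °C 1 h, against 17.6 and 16.5 CPM at 24 °C 1 h. Membership also depended on the 24 °C libraries used. Controls of the same hour number 2 libraries in place of 8, so the hour and the number of libraries cannot be told apart here. Against the 24 °C libraries of the same hour in place of all 8, 124 of the 200 genes still met every condition. Of the 76 that did not, 55 stood above the 1 h limit, 17 below it and 8 fell short at a later hour, with some counted under more than 1 heading, while 192 of the 200 still met the late conditions.

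**Figure D2:**
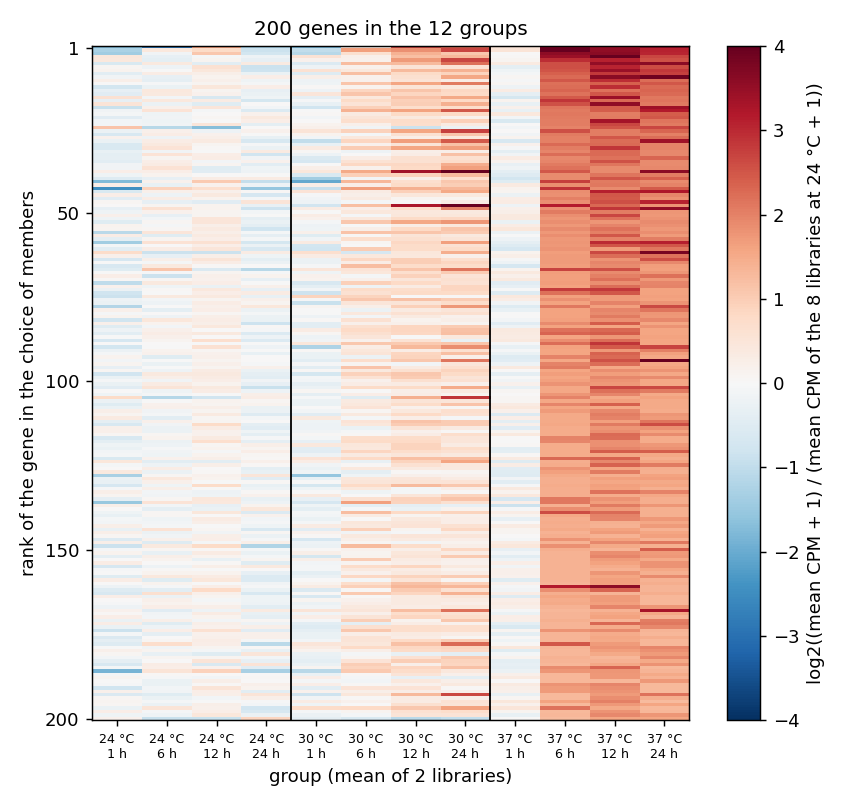
The 200 genes (rows, by rank in the choice) in the 12 groups (columns, means of 2 libraries), as the log2 ratio of mean CPM plus 1 to the mean over the 8 libraries of 24 °C plus 1, from blue (below) to red (above). Columns of 37 °C at 6, 12 and 24 h are red because genes were chosen so, 37 °C 1 h is pale, and the columns of 30 °C redden toward 24 h in part of the rows.

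None of the 200 genes had a product name among the 480 genes that the tables of the study name here, and none fell in any of the 18 lists of pathways and protein families built on those names. Most of these names belong to genes raised after 1 h at 37 °C, which the choice left out, so the absence of chaperone, ubiquitin or other named genes is a property of the tables used. Of the 200 genes, 171 were among the 1436 genes of the study's turquoise co-expression module in the part of the module table used, 0 were among the 563 of the yellow module, and 29 were in neither. The modules were built on these same libraries, which makes this count a description. Apart from genes at the thresholds and the clock gene Pp3c7_6560, the genes named below were picked after their values were seen, and none of them has a product name in the sources used here.

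Whether the 200 genes also answered to the milder temperature was tested in libraries that had no part in the choice, those of 30 °C, although the 24 °C libraries they were set against had been used in it. Genes were called up- or down-regulated at an adjusted p under 0.05 from edgeR's quasi-likelihood test over all 21429 genes tested and a change of 1 or more on the log2 scale. After 24 h at 30 °C, 89 of the 200 genes (44.5%) were up-regulated against 24 °C, beside 9.30% of all genes tested, and 1, Pp3c19_7171, was down-regulated, beside 9.41%. Their median log2 fold change was 0.93, against 0.07 for all genes, and 185 of the 200 had a value above 0 (beside 53.3% of all genes). Without any 1 library of the 2 groups, between 74 and 83 were called up-regulated, and the down-regulated numbered 2 without replicate 2 of 30 °C. With limma-voom and treat, which asks whether the change exceeds 1 on the log2 scale, 11 of the 200 (5.50%) were called up-regulated, beside 0.896% of all genes.

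At the earlier hours few of the 200 genes passed at 30 °C. After 1 h, 7 were up-regulated and 2 (Pp3c24_9482 and Pp3c25_6350) down-regulated, beside 2.46% and 1.07% of all genes, and the median was 0.02. After 6 h, 9 were up-regulated (4.5%, beside 0.658% of all genes) and 0 down-regulated (beside 0.457%), with a median log2 fold change of 0.46. After 12 h, 16 were up-regulated (8.00%, beside 1.61%) and 0 down-regulated (beside 1.05%), with a median of 0.43. At 6 and 12 h, 180 and 182 of the 200 genes had values above 0, beside 48.5% and 48.6% of all genes. Without an adjustment for the number of genes, 82 genes at 6 h (beside 8.31% of all genes) and 84 at 12 h (beside 9.66%) were higher with an edgeR p under 0.05. At this threshold 0 were lower at either hour, beside 8.33% and 11.5% of all genes, and DESeq2 also called 0 down-regulated at both.

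These early counts depended on single libraries. After 1 h, between 1 and 3 genes were up-regulated without any 1 of the libraries concerned. After 6 h the count of 9 became 3 without either 24 °C library, 4 without replicate 1 of 30 °C and 7 without its replicate 2. After 12 h the count of 16 became 3 and 5 without replicates 1 and 2 of 24 °C, 26 without replicate 1 of 30 °C and 3 without replicate 2 of 30 °C. The 2 genes lower at 1 h were reduced to 0 without replicate 1 of 24 °C or either library of 30 °C. With treat, 0 of the 200 genes passed at 1, 6 or 12 h. Of all genes, 0.229%, 0.00467% and 0.0373% were called up-regulated by treat at these hours, so few calls were to be had there.

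**Figure D3:**
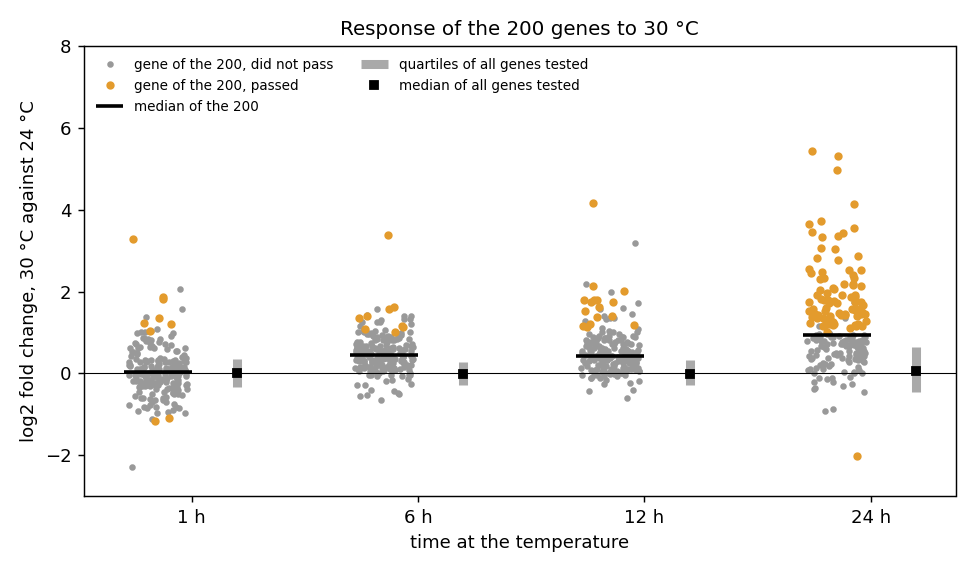
Log2 fold change of 30 °C against 24 °C at each time for the 200 genes (points, orange where the gene passed edgeR's test, grey where it did not), with their median (black bar), beside the quartiles (grey bar) and median (square) of all 21429 genes tested. The median of the 200 was 0.02 at the first hour, then 0.46 (6 h), 0.43 (12 h) and 0.93 (24 h), and that of all genes lay between −0.01 and 0.07.

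Over the 4 hours at 30 °C, 95 of the 200 genes (47.5%, beside 11.2% of all genes) were up-regulated at least once and 105 never. Of the 95, 66 genes (33.0% of the 200, beside 7.35% of all genes) passed at 24 h but at no earlier hour. A further 15 of the 200 passed at 12 and 24 h (beside 1.21% of all genes) and 6 at 1 and 24 h (beside 0.980%). At 6, 12 and 24 h 1 gene passed, Pp3c6_25640 (beside 0.266% of all genes). Log2 fold changes under 0.5 in size at all 4 hours were those of 22 of the 200 (beside 28.9% of all genes). Genes whose 37 °C level was highest at 6 h had a median log2 fold change of 1.73 after 24 h at 30 °C, with 16 of 26 up-regulated. The medians were 0.82 for those highest at 12 h, of which 46 of 116 were up-regulated, and 0.97 for those highest at 24 h, with 27 of 58. The difference between these classes was not tested.

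The change of the 30 °C response with time was tested as an interaction, the difference between the response at a later hour and that at 1 h. At 24 h, 59 of the 200 genes had a larger response than at 1 h, beside 4.81% of all genes, and 1 had a smaller response, beside 7.48%. The median difference was 0.95 on the log2 scale for the 200 and 0.01 for all genes. At 6 h, 3 genes had a larger response (beside 0.154% of all genes) and 0 a smaller one (beside 0.509%). At 12 h the counts were again 3 (beside 0.434%) and 0 (beside 1.23%). Among those lower, 4 genes at each of these hours had an unadjusted edgeR p under 0.05, and DESeq2 called 0 at 6 h and 1 at 12 h. With treat, 0.0467% of all genes had a larger response at 24 h than at 1 h. The 24 h count became 37 without replicate 1 of 24 °C 1 h and 1 with treat. The 6 h count fell to at most 2 without any 1 library, and the 12 h count became 7 without replicate 1 of 30 °C 12 h. The gene with a smaller response at 24 h, Pp3c19_7171, was lost without either 24 °C library of 1 h, either 30 °C library of 24 h, replicate 1 of 24 °C 24 h, or the first library of 30 °C 1 h, and with library totals. At 12 h, 1 had a smaller response without replicate 2 of 24 °C 1 h.

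A comparison that used none of the libraries of the choice set later hours at 30 °C against 1 h at 30 °C. Of the 200 genes, 52 were higher after 6 h (beside 8.16% of all genes), 70 after 12 h (beside 9.91%) and 86 after 24 h (beside 11.1%). The genes lower than at 1 h numbered 1 (Pp3c20_18130), 1 (Pp3c20_23560) and 0, beside 5.98%, 8.32% and 8.77% of all genes, and each of these counts moved by 1 without some library (at 6 h without replicate 2 of 30 °C 1 h or 6 h, at 12 h without either 12 h library or replicate 1 of 30 °C 1 h, at 24 h without replicate 2 of 30 °C 24 h). At 24 h, 3 were lower with an unadjusted edgeR p under 0.05, and DESeq2 called 0. Median log2 fold changes were 0.56, 0.79 and 0.87, against 0.03, 0.06 and 0.08 for all genes. With treat the higher genes numbered 4, 6 and 15, beside 0.747%, 0.896% and 1.28% of all genes. Scaled by library totals alone they numbered 127 at 12 h (beside 20.7% of all genes) and 137 at 24 h (beside 20.8%), and the median of all genes then moved by more than 0.4 at these hours.

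Without heat, part of the 200 genes also changed with the hour. At 24 °C, 21 of the 200 were higher at 6 h than at 1 h (beside 8.39% of all genes) and 5 lower (beside 5.43%), Pp3c20_23560, Pp3c20_18130, Pp3c5_15510, Pp3c3_2130 and Pp3c19_7171. At 12 h, 34 were higher (17.0%, beside 7.93%) and 5 lower (2.50%, beside 6.16%), with a median log2 fold change of 0.30 against 0.04 for all genes. Those lower were Pp3c20_23560, Pp3c20_18130, Pp3c19_7171, Pp3c24_9481 and Pp3c24_9482. At 24 h, nearly a day after the first sampling, 7 were higher (3.5%, beside 2.78%) and 3 lower (1.5%, beside 0.961%), namely Pp3c20_23560, Pp3c3_29500 and Pp3c6_16570, and the median was 0.00. At 6 h the median was 0.19. Of the 34 genes higher at 12 h, 22 (64.7%) were also among the 89 that were up-regulated after 24 h at 30 °C, of which they made up 24.7%. Over all genes tested the same shares were 24.5% and 20.9%. The shares start from unlike bases. Up-regulation after 24 h at 30 °C held for 44.5% of the 200 and 9.30% of all genes, and a higher level at 12 h for 17.0% and 7.93%. The larger shares of the 200 are therefore not read as a link particular to them. Both comparisons use 24 °C libraries of the choice, and the overlap was not tested.

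Small counts among these also moved with single libraries. Without replicate 1 of 24 °C 1 h, the genes lower at 6 h and at 12 h each numbered 3, and without replicate 1 of 24 °C 12 h those lower at 12 h numbered 2. Those higher at 24 h numbered 4 without replicate 1 and 3 without replicate 2 of 24 °C 1 h, and 4 without replicate 1 of 24 °C 24 h. Those lower at 24 h numbered 5 without replicate 2 of 24 °C 1 h and 0 without replicate 1 of 24 °C 24 h.

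The 264 genes that met every condition but ranked lower had 23.1% up-regulated after 24 h at 30 °C, with a median log2 fold change of 0.49. Among the 780 genes that met the late conditions but were already above the limit after 1 h at 37 °C, 31.7% were up-regulated after 24 h at 30 °C, with a median of 0.78. At the first hour at 30 °C, 3.5% of the 200 were up-regulated, against 24.1% of these 780. The response at 24 h exceeded that at 1 h in 29.5% of the 200, against 5.77% of the 780. The 92 genes below the limit at 1 h lay at 31.5% up-regulated after 24 h, and at 38.0% for a larger response than at 1 h. The 8963 base genes with a flat first hour at 37 °C had 7.02% and 4.59%. The 200 were the top of a ranking and the 264 the rest of it, whereas the 780 and the 92 were not cut by rank. Shares of the 200 and of the uncut sets are thus not like for like. These shares are descriptions of sets chosen at 37 °C, and no test between the sets was run.

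After 24 h, most of the 200 genes were lower at 30 °C than at 37 °C. Both libraries of 30 °C lay below both of 37 °C for 185 genes (92.5%, beside 39.7% of all genes tested), above both for 7 (beside 37.8%), and overlapped them for 8 (beside 22.4%). The median log2 ratio of 30 °C to 37 °C, with 1 CPM added, was −1.16, with quartiles of −1.48 and −0.80, and that of all genes was −0.02. The 37 °C level took part in the choice, so nothing is read from these counts and ratios and they carry no test.

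**Figure D4:**
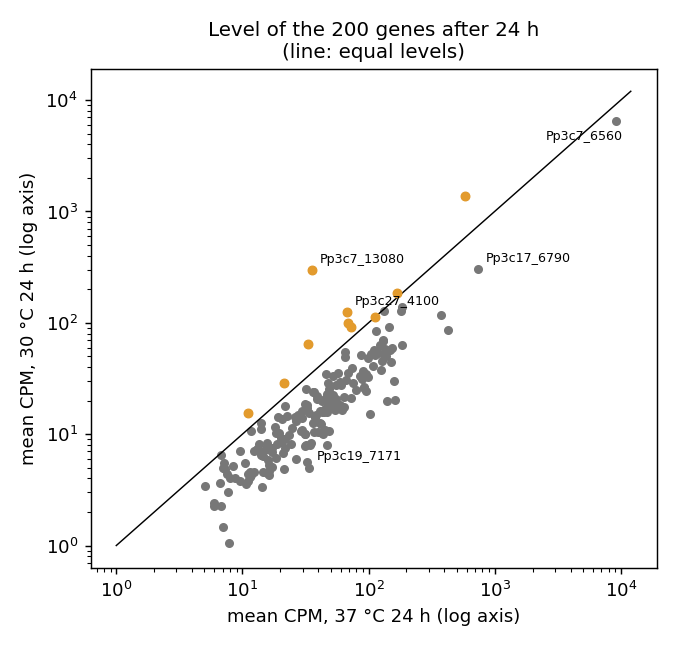
Mean CPM (TMM-scaled, log axes) of each of the 200 genes in the 2 libraries of 30 °C 24 h against that in the 2 libraries of 37 °C 24 h, with the line of equal levels. Most points lie below the line, and genes with a higher mean at 30 °C are orange, Pp3c7_13080 the farthest above it at 297 CPM at 30 °C and 35.7 CPM at 37 °C.

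Pp3c7_6560 was listed by the study as the homolog of CCR2, a glycine-rich RNA-binding protein whose transcript cycles with the clock in Arabidopsis. It had 1880 and 1951 CPM after 1 h at 24 °C, 2532 and 2809 CPM at 6 h, 5844 and 4364 CPM by 12 h, and 2441 and 2476 CPM after 24 h. At 30 °C it had 1806 and 1904 CPM after 1 h, 5159 and 5384 CPM at 6 h, 7329 and 7253 CPM by 12 h, and 7403 and 5453 CPM after 24 h. At 37 °C the values were 2790 and 3089, 7867 and 9116, 11083 and 8057, and 9238 and 9028 CPM at the same hours. At 24 °C the level was thus highest at 12 h and low again at 24 h, whereas at 30 and 37 °C the 24 h libraries stayed high. Its log2 fold change at 24 °C, 12 h against 1 h, was 1.41 ± 0.18 (SE, edgeR adjusted p = 1.1e-05). After 24 h, 30 °C against 24 °C gave 1.39 ± 0.18 (SE, edgeR adjusted p = 1.4e-05), a response larger than that at 1 h by 1.43 ± 0.25 (SE, edgeR adjusted p = 0.00083). At 6 h the value of 0.98 (adjusted p = 0.0055, edgeR) lay just under the fold limit, and passed it at 1.03 with library totals and at 1.01 without replicate 1 of 30 °C 6 h. At 12 h it was 0.51 (adjusted p = 0.090, edgeR) and did not pass. Its reads made up a large part of the summed CPM of the 200, which was 21591 and 20571 at 37 °C 24 h, and 12352 and 11542 without it. All 200 together held 0.423 to 0.986% of the counts at 24 °C, 0.392 to 1.65% at 30 °C and 0.394 to 2.67% at 37 °C.

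Pp3c17_6790 ranked first in the choice, with centred log2 ratios of 3.75, 3.43 and 3.57 at the late hours of 37 °C. It too varied without heat, with 170 and 223 CPM at 24 °C 12 h, against 17.6 and 16.5 CPM at 24 °C 1 h, a log2 fold change of 3.52 ± 0.47 (SE, edgeR adjusted p = 2.2e-05). At 30 °C it had 81.4 and 66.4 CPM after 6 h, against 6.05 and 8.14 CPM at 24 °C, and 294 and 318 CPM after 24 h, against 23.2 and 22.9 CPM. The groups did not overlap at either hour, and the log2 fold changes were 3.38 ± 0.48 (SE, edgeR adjusted p = 0.0010) and 3.73 ± 0.47 (SE, edgeR adjusted p = 1.2e-05). At 12 h, when the 24 °C level was itself high, 30 °C had 327 and 460 CPM, and the log2 fold change of 1.00 did not pass (adjusted p = 0.17, edgeR). After 24 h at 37 °C it stood at 725 and 752 CPM.

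Next by rank were Pp3c14_26420 and Pp3c1_36560. Pp3c14_26420 had 152 and 123 CPM after 24 h at 30 °C, against 10.3 and 11.6 CPM at 24 °C, a log2 fold change of 3.65 ± 0.66 (SE, edgeR adjusted p = 0.00040). Its replicates differed widely at 37 °C, with 8.48 and 51.6 CPM at 1 h and 365 and 139 CPM at 12 h. The mean at 37 °C 1 h was 30.1 CPM, against 8.11 CPM at 24 °C 1 h. Pp3c1_36560 had 11.8 and 10.02 CPM after 24 h at 30 °C, against 2.37 and 2.45 CPM at 24 °C (log2 fold change 2.17 ± 0.31, SE, edgeR adjusted p = 4.8e-05). At 24 °C it was also higher at 12 h, with 13.1 and 8.74 CPM, than at 1 h, with 1.22 and 1.09 CPM. That log2 fold change was 3.23 ± 0.35 (SE, edgeR adjusted p = 2.4e-06). After 1 h at 37 °C, Pp3c1_36560 had a mean of 4.68 CPM, against 1.15 CPM at 24 °C 1 h. Both genes met the 1 h condition against the mean of all 8 libraries of 24 °C.

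Among the genes higher at 30 °C than at 37 °C after 24 h was Pp3c7_13080. It had 346 and 249 CPM after 24 h at 30 °C, against 6.01 and 9.13 CPM at 24 °C, and 31.1 and 40.3 CPM at 37 °C. The log2 fold change of 30 °C against 24 °C was 5.32 ± 1.25 (SE, edgeR adjusted p = 0.0034). Its replicates were far apart at 30 °C 12 h (12.4 and 188 CPM) and at 37 °C 12 h (96.7 and 4.88 CPM). Replicate 2 of 37 °C 12 h lay below the 24 °C mean of that hour, 10.7 CPM, so the 12 h condition of the choice rested on replicate 1. Pp3c27_4100 also had replicates far apart, with 12.9 and 101 CPM at 30 °C 12 h and 29.2 and 10.6 CPM at 37 °C 12 h. After 24 h it had 109 and 139 CPM at 30 °C, against 4.11 and 3.78 CPM at 24 °C, a log2 fold change of 4.96 ± 0.93 (SE, edgeR adjusted p = 0.00055). For both genes the library that was high at 12 h was replicate 2 at 30 °C and replicate 1 at 37 °C.

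The largest fitted change after 24 h at 30 °C was that of Pp3c11_22230, at 5.42, and it came from few reads. This gene had 90 counts over the 2 libraries of 30 °C 24 h and 1 over those of 24 °C 24 h, a ratio of 50.2 with a 95% counting interval of 8.79 to 2010. The log2 fold change was 8.17 without replicate 1 of 24 °C 24 h and 4.74 without replicate 2, and the call held in both cases (adjusted p of 0.0010 and 0.0013, edgeR). It had 15 to 21 counts in each 24 °C library of 6 and 12 h, so the low value belonged to the 24 °C libraries of 1 and 24 h. Few reads also lay behind Pp3c8_14850, whose log2 fold change of 3.295 was the largest of the 200 genes after 1 h at 30 °C (adjusted p = 0.023, edgeR). It had 22 counts over the 30 °C libraries and 2 over those of 24 °C, a ratio of 10.6 with an interval of 2.62 to 93.4. This call was lost without either 24 °C library of 1 h, and without replicate 2 of 30 °C, which also brought the value to 2.19 (adjusted p of 0.13 to 0.27, edgeR). The intervals cover counting error only.

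Pp3c19_7171, the last gene by rank, was the 1 gene of the 200 called down-regulated after 24 h at 30 °C. It had 5.46 and 4.54 CPM at 30 °C, against 23.7 and 16.5 CPM at 24 °C, with a log2 fold change of −2.02 ± 0.31 (SE, edgeR adjusted p = 9.6e-05). At 37 °C 24 h it had 39.5 and 27.9 CPM, so the 2 temperatures lay on opposite sides of the unheated level of that hour for this gene. The 37 °C side was not free of the choice. The choice used the mean over all 8 libraries of 24 °C, which for Pp3c19_7171 was 10.6 CPM by plain totals. Its mean level at 24 °C was 12.1 CPM at 1 h, 5.32 CPM at 6 h, 5.30 CPM at 12 h and 20.1 CPM at 24 h. The 30 °C level after 24 h was thus near the unheated levels of 6 and 12 h. Pp3c18_12550 had 32.6 and 42.7 CPM after 24 h at 30 °C, against 37.8 and 28.0 CPM at 24 °C. Those libraries overlapped, and the log2 fold change of 0.19 (adjusted p = 0.49, edgeR) did not pass. At 37 °C 24 h this gene had 124 and 127 CPM.

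The 24 °C time course parted some genes that were all high at the late hours of 37 °C, as the choice required. Pp3c9_12920 had 93.9 and 98.8 CPM at 24 °C 12 h, against 10.6 and 15.4 CPM at 24 °C 1 h, and it rose by 2.89 on the log2 scale ± 0.17 (SE, edgeR adjusted p = 2.2e-09). Pp3c20_23560 went the other way, with 8.68 and 4.91 CPM at 12 h, against 73.5 and 36.0 CPM at 1 h, a log2 fold change of −2.999 ± 0.36 (SE, edgeR adjusted p = 8.7e-06). Both stood at 135 CPM or above in each library of 37 °C 12 h and at 125 CPM or above in each of 37 °C 24 h. Their courses at 37 °C differed. Mean levels at 1, 6, 12 and 24 h were 42.3, 175, 172 and 129.5 CPM for Pp3c9_12920. For Pp3c20_23560 they were 22.2, 98.8, 144 and 161 CPM. After 1 h at 37 °C, Pp3c9_12920 thus lay above the 24 °C libraries of the same hour and Pp3c20_23560 below them.

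Positions were read from the gene identifiers, which carry the chromosome and the order of genes in version 3 of the moss genome. The 200 genes lay on all 27 chromosomes. Chromosome 21 held 15 of them among 540 base genes (2.78%), against 1.11% over all base genes. Neighbours were taken in the order of all 32926 genes counted. Of the 200, 10 were next to another of the 200 (5.0%), compared with 241 of 17876 other base genes (1.35%) next to 1 of them. These were the pairs Pp3c5_25680 and Pp3c5_25690, Pp3c6_25620 and Pp3c6_25640, Pp3c21_1390 and Pp3c21_1420, Pp3c21_13550 and Pp3c21_13560, and Pp3c24_9481 and Pp3c24_9482. Reads were counted without regard to strand, so reads where neighbours overlap could not be told apart by strand, and no test was run on positions.

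The pair on chromosome 24 had nearly the same time course. Pp3c24_9482 had 3.13 and 3.41 CPM after 1 h at 30 °C, against 9.05 and 5.63 CPM at 24 °C, and then 12.0 and 9.75 CPM after 12 h, against 1.91 and 3.14 CPM. The first difference was −1.17 on the log2 scale ± 0.29 (SE, edgeR adjusted p = 0.022), and was lost without replicate 1 of 24 °C 1 h or either 30 °C library (adjusted p of 0.097 to 0.27). At 12 h the log2 fold change was 2.13 ± 0.27 (SE, edgeR adjusted p = 0.00021). Pp3c24_9481 had 6.52 and 5.07 CPM after 12 h at 30 °C, against 0.955 and 1.96 CPM at 24 °C, a log2 fold change of 2.02 ± 0.36 (SE, edgeR adjusted p = 0.0032), which did not pass without replicate 1 of 24 °C 12 h (adjusted p = 0.068). At 24 °C, Pp3c24_9482 was lower at 12 h than at 1 h by a log2 fold change of −1.55 ± 0.28 (SE, edgeR adjusted p = 0.00049).

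In the pair on chromosome 6, Pp3c6_25640 was the gene that passed at 6, 12 and 24 h of 30 °C. It had 3.72 and 2.93 CPM after 6 h at 30 °C, against 1.14 and 0.987 CPM at 24 °C, and 3.41 and 3.40 CPM after 24 h, against 1.11 and 0.890 CPM. The log2 fold changes were 1.62 (adjusted p = 0.038), 1.61 (adjusted p = 0.022) and 1.74 (adjusted p = 0.0048) at 6, 12 and 24 h in edgeR's quasi-likelihood test. The 6 h call was lost without any 1 of the 4 libraries (adjusted p of 0.078 to 0.29). The 12 h call was lost without replicate 1 of 24 °C 12 h, and likewise without replicate 2 at 30 °C (adjusted p of 0.17 to 0.22).

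**Figure D5:**
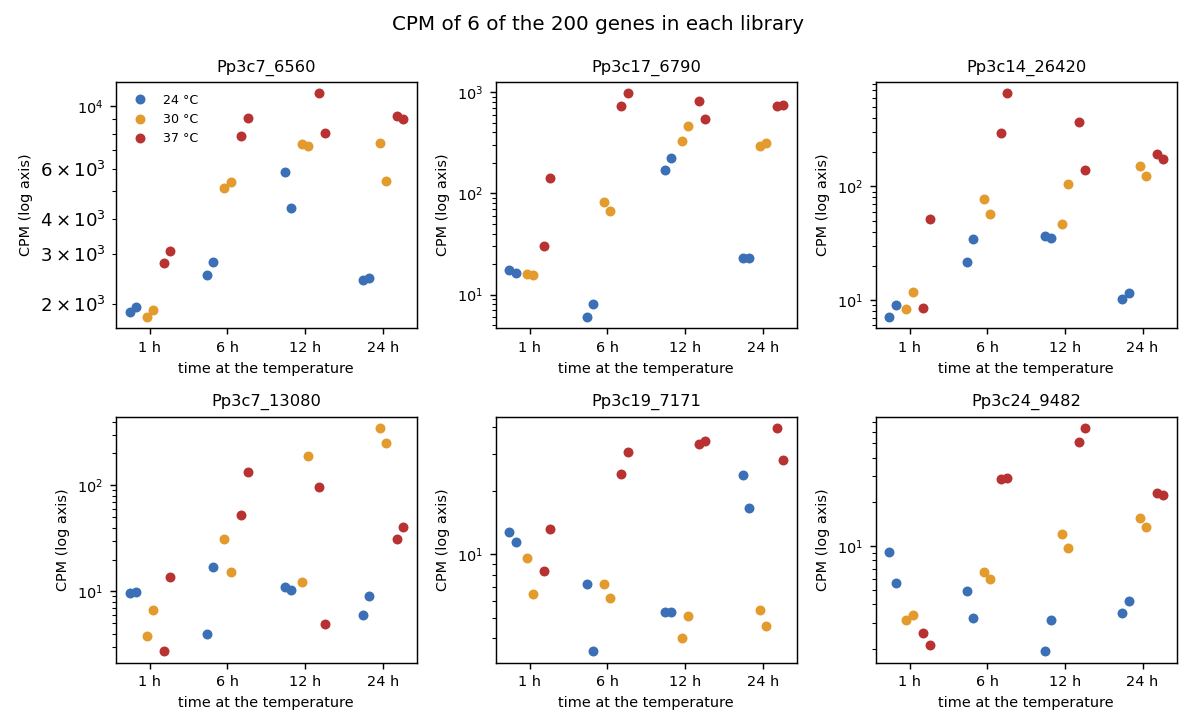
CPM (TMM-scaled, log axis, a scale of its own in each panel) of 6 of the 200 genes in each library at 24 °C (blue), 30 °C (orange) and 37 °C (red) by time at the temperature. Pp3c7_6560 and Pp3c17_6790 have a 12 h high without heat, and Pp3c7_13080 is highest at 30 °C 24 h. At 30 °C, Pp3c19_7171 lies below the 24 °C libraries of the same hour at 24 h, and Pp3c24_9482 begins below them at 1 h.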

How the data were processed

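Messenger RNA libraries of *P. patens* protonemata (stranded, paired reads) covered 3 temperatures and 4 hours with 2 libraries each. The deposited values are raw counts per gene, made by the authors with bcl2fastq 1.8.4 (demultiplexing), BWA-MEM 0.7.17.1 (alignment to version 3 of the genome) and featureCounts at default settings, which do not use strand. Replicate numbers come from the labels, which do not say that they mark separate cultures, so p-values may measure technical spread in part.

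The filter kept 21429 of 32926 genes, those above 0.5 CPM in 2 or more of the 24 libraries. edgeR 4.0.16 (R 4.3.3) with TMM factors and 1 quasi-likelihood model of the 12 groups gave 13 comparisons, each adjusted by Benjamini-Hochberg over all genes. Standard errors (SE) were taken from the F statistic, as the absolute log2 fold change over its square root. The script was tested on simulated data. Alternatives were library totals, RLE size factors, no filter, DESeq2 1.42.0, limma-voom treat (limma 3.58.1, the test nearest to the study's), a replicate block, each library left out and other settings of the choice of genes.

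The 200 genes, the lists and the tests were chosen with earlier results of these data known. The naming rule took genes with product names by rank, level, list membership and fold change, genes at the thresholds, and genes in the text of the study. With no product name among the 200, it gave the threshold genes and Pp3c7_6560 (from the clock gene table), and the other genes were picked after their values were seen. No RefSeq entry matched the gene identifiers. Promoters and proteins were not analysed here.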

Additional observations from a re-analysis of the deposited data

Results flagged for a closer look

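Results below stood out because the response to 30 °C at a later hour differed from that at 1 h in a test of the difference itself (the interaction in edgeR's quasi-likelihood test). Of the 200 genes, 3 had a larger response at 6 h, 3 at 12 h and 59 at 24 h, beside 0.154%, 0.434% and 4.81% of all genes. A smaller response at 24 h was that of 1 gene, beside 7.48% of all genes.

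The differences from the 1 h response at 24 h were 6.2 on the log2 scale for Pp3c7_13080 (adjusted p = 0.026), 4.81 for Pp3c11_22230 (adjusted p = 0.016) and 4.73 for Pp3c27_4100 (adjusted p = 0.023). They were 3.83 for Pp3c17_6790 (adjusted p = 0.00076) and 1.43 for Pp3c7_6560 (adjusted p = 0.00083) in edgeR's test. That of Pp3c19_7171, −1.43 (adjusted p = 0.034, edgeR), ran the other way.

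At 12 h the differences were 3.29 for Pp3c24_9482 (adjusted p = 0.00074), 3.12 for its neighbour Pp3c24_9481 (adjusted p = 0.0096) and 2.31 for Pp3c7_10960 (adjusted p = 0.0497, edgeR). At 6 h they were 3.49 for Pp3c17_6790 (adjusted p = 0.026), 1.8 for Pp3c24_9482 (adjusted p = 0.044) and 1.10 for Pp3c6_8600 (adjusted p = 0.042, edgeR). Pp3c6_8600 had 164 and 157 CPM after 6 h at 30 °C, against 69.4 and 73.5 CPM at 24 °C, and after 1 h it had 54.4 and 72.2 CPM at 30 °C, against 62.0 and 58.7 CPM at 24 °C.

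Several of these calls were lost when 1 library was left out. For the 24 h differences this held in 7 of 8 cases for Pp3c7_13080 (adjusted p of 0.059 to 0.090), in 6 of 8 for Pp3c19_7171 (0.061 to 0.17), in 4 of 8 for Pp3c27_4100 (0.065 to 0.10) and in 2 of 8 for Pp3c11_22230 (0.055 to 0.31), whose difference was 7.56 without replicate 1 of 24 °C 24 h. At 12 h, Pp3c24_9481 lost its call in 1 of 8 cases (0.058) and Pp3c7_10960 in 8 of 8 (0.078 to 0.21). At 6 h, Pp3c17_6790 (0.069 to 0.11), Pp3c24_9482 (0.058 to 0.24) and Pp3c6_8600 (0.079 to 0.18) each lost theirs in 7 of 8. The differences at 24 h for Pp3c7_6560 and Pp3c17_6790 and that at 12 h for Pp3c24_9482 passed in all 8 cases.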

How the results depend on the processing

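With limma-voom treat, a stricter test, the genes higher at 30 °C than at 24 °C numbered 0, 0, 0 and 11 by hour, and those lower 0 at 1 h and 0 at 24 h. Those higher than at 1 h numbered 4, 6 and 15 at 30 °C and 3, 5 and 0 at 24 °C, for 6, 12 and 24 h. Those lower numbered 0 at 6 h and 0 at 12 h at 30 °C, and 0, 1 and 0 at 24 °C. Larger 30 °C responses than at 1 h numbered 0, 0 and 1 (beside 0%, 0% and 0.0467% of all genes), and smaller ones 0 at 24 h. With treat, 28 of the 37 values of named genes that had passed edgeR's test no longer passed and 9 did. Median log2 fold changes stayed within the spread of replicates.

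With library totals in place of TMM, medians of 30 °C against 24 °C were −0.076 at 1 h and 1.15 at 24 h. Against 1 h they were 0.84, 1.24 and 1.28 at 30 °C and 0.32, 0.53 and 0.10 at 24 °C, and the 30 °C response differed from 1 h by 0.56, 0.64 and 1.26. Higher genes at 30 °C against 1 h numbered 127 at 12 h and 137 at 24 h, with 0 lower at 6 and at 12 h. At 24 °C, 32 were higher at 6 h and 1 lower at 24 h. Larger responses than at 1 h numbered 5, 7 and 93, with 0 smaller at 24 h. The median of all genes moved too, to 0.29 against 0.07 with TMM for 30 °C against 24 °C at 24 h, and the up-regulated share of all changed genes there was 67.2% against 49.7%. Under library totals, RLE size factors, no filter, DESeq2, treat and the block, the median of the 200 was above that of all genes in each comparison except 24 °C, 24 h against 1 h. The smaller 24 h response of Pp3c19_7171 did not pass with library totals, nor the larger 12 h response of Pp3c7_10960 with RLE size factors.

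DESeq2 gave 6 and 8 larger responses at 6 and 12 h and 1 smaller at 12 h, and a median of 0.14 at 24 °C 6 h against 1 h, as did RLE size factors (0.14). Without the filter, larger responses numbered 5 at 6 h and 5 at 12 h, 1 was smaller at 12 h, and the 24 °C 6 h median was 0.16. Replicate numbers showed no general pairing of the libraries. Over 66 pairs of groups, deviations of same-numbered libraries correlated at −0.20 to 0.40 (median 0.04), and 24 pairs lay above 0.1. Pairing between some of the groups was not tested. With the replicate number as a block, smaller responses numbered 1 at 12 h and 2 at 24 h, and no other call or count named here changed by over 1.5 times.

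Leaving out each library in turn, higher genes at 30 °C against 24 °C ranged over 1 to 3 (1 h), 3 to 7 (6 h), 3 to 26 (12 h), with 0 to 2 lower at 1 h, 1 to 2 lower at 24 h, and a 24 h median of 0.93 to 1.02. At 30 °C against 1 h, 0 to 1 were lower at 6, 12 and 24 h and the 24 h median was 0.87 to 0.97. At 24 °C against 1 h, 3 to 7 were lower at 6 h, 2 to 5 at 12 h and 0 to 5 at 24 h, 3 to 5 were higher at 24 h, and medians were 0.16 to 0.23 at 6 h and −0.063 to 0.063 at 24 h. Larger responses ranged over 0 to 2, 2 to 7 and 37 to 52, smaller ones over 0 to 1 at 12 h and at 24 h, and the 24 h median over 0.86 to 1.01. Pp3c18_12550 ranged over −0.019 to 0.43 (0.19 with all libraries), the lowest without replicate 2 of 30 °C 24 h.

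With TMM-scaled CPM in the choice, 181 of the 200 genes still met its conditions, and 124 did with controls of the same hour. The choice kept 148 to 200 without each 37 °C library. The cause of these shifts was not tested. Depth limits genes near 1 CPM, for which a few reads set the fold change.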
